A study of Mus musculus with 9 samples.

Results

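Complex I genes were followed across birth in the mouse heart. The genes were taken from the deposited table of FPKM, in which fragment counts are scaled by transcript length and library size, as every row whose symbol begins with Nduf, leaving out pseudogene symbols that hold -ps. This rule uses no measured value and gave 48 of 48820 genes. They comprised 7 core subunits, 29 accessory subunits, 8 assembly factors and 4 others, namely *Ndufa4*, which encodes a subunit of complex IV despite its name, its paralogue *Ndufa4l2*, the copy gene *Ndufa11b*, and a second row under the symbol *Ndufa13* whose identifier belongs to *Yjefn3* in GENCODE M21. The hearts came from untreated wild-type C57BL/6J mice, all labelled male, on embryonic day 18.5 (E18.5d), postnatal day 1 (P1d) and postnatal day 7 (P7d), with 3 biological replicates at each stage. The study compared these stages to follow metabolic change in the heart after birth. The labels give no method of dissection and do not say whether littermates were used.

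Complex I, or NADH dehydrogenase, is the entry point of the respiratory chain. It takes electrons from NADH, passes them along a row of iron-sulphur clusters to ubiquinone and pumps protons across the inner mitochondrial membrane. The core subunits carry out these reactions: those encoded in the nucleus form the matrix arm, and those encoded in mitochondrial DNA form the pumping membrane arm. The accessory subunits surround and stabilise both arms, whereas the assembly factors put modules together and are not part of the finished enzyme. The heart, which relies on oxidative metabolism after birth, is rich in this enzyme.

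Before any result, 4 of the 9 hearts went against their label. In E18.5d replicates 1 and 3, *Xist*, transcribed from the inactive X chromosome, stood at 82.57 and 97.03 FPKM, in P7d replicates 2 and 3 it stood at 58.03 and 69.96 FPKM, and the Y-linked *Ddx3y*, *Kdm5d*, *Uty* and *Eif2s3y* were listed at 0 in those hearts. The other 5 hearts held at most 0.11 FPKM of *Xist* and were all of the P1d hearts, E18.5d replicate 2 and P7d replicate 1. A difference between P1d and another stage thus coincides in part with a difference in *Xist*. Depth estimated from the steps between low values was 25500000 to 45250000 fragments per heart. The 8 cardiomyocyte markers summed to 32115 to 34266 FPKM at E18.5d, 35840 to 41099 FPKM at P1d and 37984 to 39726 FPKM at P7d, with *Myh6* the main part of the rise, while *Tnnt2* and *Nkx2-5* were lowest at P7d. Fibroblast markers summed to 1672 to 1734 FPKM at E18.5d and 2255 to 2343 FPKM at P7d. Of these, *Col1a1*, *Col3a1* and *Dcn* were higher at P7d, *Postn* was lower, and *Pdgfra* and *Tcf21* overlapped between the 2 stages. Endothelial markers summed to 298 to 335 FPKM and 417 to 432 FPKM, whereas the sums of smooth muscle and epicardial markers were lowest at P7d. In these 3 lists *Tek*, *Myh11* and *Wt1* overlapped between E18.5d and P7d. Lung markers, nearly all *Scgb3a2* and *Scgb1a1* with *Sftpc* and *Sftpb* near 0, summed to 55.9, 137 and 221 FPKM in E18.5d replicate 1, E18.5d replicate 2 and P1d replicate 1 and to at most 1.44 FPKM elsewhere. The 4 brown fat markers summed to 5.94 to 7.77, 24.6 to 26.1 and 32.3 to 37.5 FPKM, most of it *Cidea*, while *Ucp1* was listed at 0 in the 3 E18.5d hearts and was at no more than 7.26 FPKM in the others, and *Elovl3* was at or near 0 in all. P1d replicate 2 stood apart, with the lowest share of FPKM in nuclear protein-coding genes (28.2% against 29.6 to 36.1% elsewhere) and the highest erythroid sum (24726 FPKM, followed by 22746 FPKM in E18.5d replicate 3). Its liver markers *Alb*, *Apoa1* and *Afp* summed to 30.25 FPKM, against at most 8.91 FPKM in any other heart. The part of these differences in the results was not tested.

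The subunits were abundant and the assembly factors scarce. Over all 9 hearts, the mean level per length had a median of 239 FPKM for the core subunits and was 37 to 638 FPKM for the accessory subunits (median 222 FPKM) and 8.12 to 27.3 FPKM for the assembly factors (median 11.25 FPKM). The ranges of the subunits and the assembly factors did not overlap. *Ndufa4* led the list at 695 FPKM, followed by *Ndufb8* (638 FPKM) and *Ndufb9* (624 FPKM), both accessory subunits of the membrane arm. *Ndufa11* (37 FPKM) and *Ndufs4* (55.6 FPKM) were the accessory subunits with the lowest levels. *Ndufa11b* was listed at 0 to 1.01 FPKM and did not pass the filter, a mean of at least 1 FPKM, so that 47 of the 48 genes were tested. The median relative SD within a stage went from 4.2% before birth to 6.9% on the first day and was 5.6% a week after birth.

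**Figure D1:**
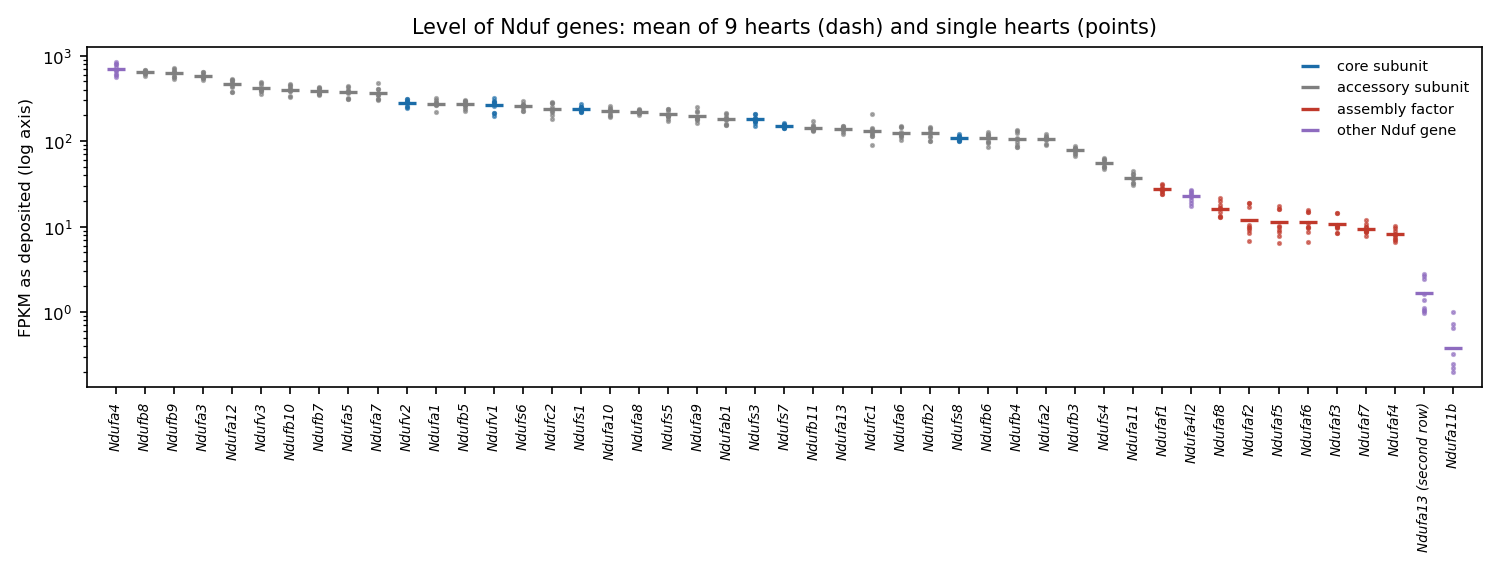
FPKM of 47 *Nduf* genes on a log axis, in order of the mean over 9 hearts (dashes), with single hearts as points and colours for the classes; the values of *Ndufa11b* listed at 0 cannot be drawn. The 8 assembly factors sit between 8.12 and 27.3 FPKM on average, below all subunits drawn.

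From E18.5d to P1d, 4 of 7 core subunits rose, 6 of 8 assembly factors fell, and accessory subunits went both ways. With limma's moderated test on log2(FPKM + 1) over 13618 genes and an adjusted p under 0.05, 8 of the 47 *Nduf* genes rose and 19 fell, beside 18.4% and 27.6% of all genes tested. By class, 4 of 7 core subunits rose and 0 fell, and these counts were the same at an unadjusted p under 0.05. Among 29 accessory subunits, 4 rose and 11 fell, and among 8 assembly factors 0 rose and 6 fell, with the same counts at an unadjusted p under 0.05 for the assembly factors. The median log2 change was 0.20 for the core subunits, -0.16 for the accessory subunits and -0.38 for the assembly factors, beside -0.06 for all genes tested. The sign of each of these 3 medians was the same under all 13 other ways of processing, and the median of the core subunits was smallest, 0.03, with each column set to the same sum. With 1 heart left out at a time, 2 to 4 core subunits rose (2 without E18.5d replicate 2, E18.5d replicate 3 or P1d replicate 3, and 3 without P1d replicate 2) and 5 to 6 assembly factors fell. With each column set to the same sum 1 core subunit rose and 1 fell, beside 1175 and 4694 of all 13618 genes. With a GC correction 4 rose and 1 fell, beside 2512 and 3742 of 13517 genes. With the covariate for *Xist*, 1 core subunit rose and 4 assembly factors fell, beside 11.8% of all genes higher and 21.2% lower. In the hearts without *Xist* the medians were 0.23 and -0.47 and limma called 0 genes of either class. FPKM are shares of a library, and in whole tissue fewer cells of a type and less RNA per cell cannot be told apart.

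The first postnatal week was more mixed. From P1d to P7d, 9 *Nduf* genes rose and 12 fell, beside 15.5% and 28.6% of all genes. Over the whole interval from E18.5d to P7d, 5 rose and 21 fell, beside 12.5% and 36.9% of all genes. These shares depended on the scale of the columns, because the median log2 change of all genes from E18.5d to P7d was -0.17 as deposited and -0.03 after rescaling each heart by the median of ratios. On the rescaled values, 10 rose and 10 fell by P1d, beside 22.9% and 23.1% of all genes, 12 rose and 3 fell from P1d to P7d, beside 21.6% and 20.3%, and 17 rose and 10 fell from E18.5d to P7d, beside 20.8% and 21.7%. The median log2 change of the *Nduf* genes from E18.5d to P7d was -0.17 as deposited and -0.01 rescaled, close to that of all genes on both scales. By class, 1 core subunit was then higher and 1 lower as deposited (median 0.07), and 5 of 7 were higher on the rescaled values (median 0.24). For the accessory subunits the counts were 4 higher and 12 lower as deposited (median -0.14), and 12 higher and 5 lower rescaled (median 0.03).

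The counts of *Nduf* genes were also taken with the hearts that express *Xist* set apart. With *Xist* above 1 FPKM as a covariate, 4 rose and 10 fell by P1d (11.8% and 21.2% of all genes), 5 rose and 6 fell from P1d to P7d (10.8% and 17.9%), and 5 rose and 19 fell from E18.5d to P7d (12% and 35.4%). In the 5 hearts without *Xist*, which leave 1 heart at E18.5d and 1 at P7d whose spread is taken from the P1d hearts, limma called 0 *Nduf* genes in each comparison. The median log2 change of the *Nduf* genes was then -0.14 at P1d, -0.01 from P1d to P7d and -0.05 from E18.5d to P7d. For all genes it was -0.08, -0.08 and -0.17 in turn. The share of all genes called in those 5 hearts was 1.76% higher and 4.29% lower at P1d, 0.551% and 0.764% from P1d to P7d, and 0.683% and 0.742% from E18.5d to P7d.

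**Figure D2:**
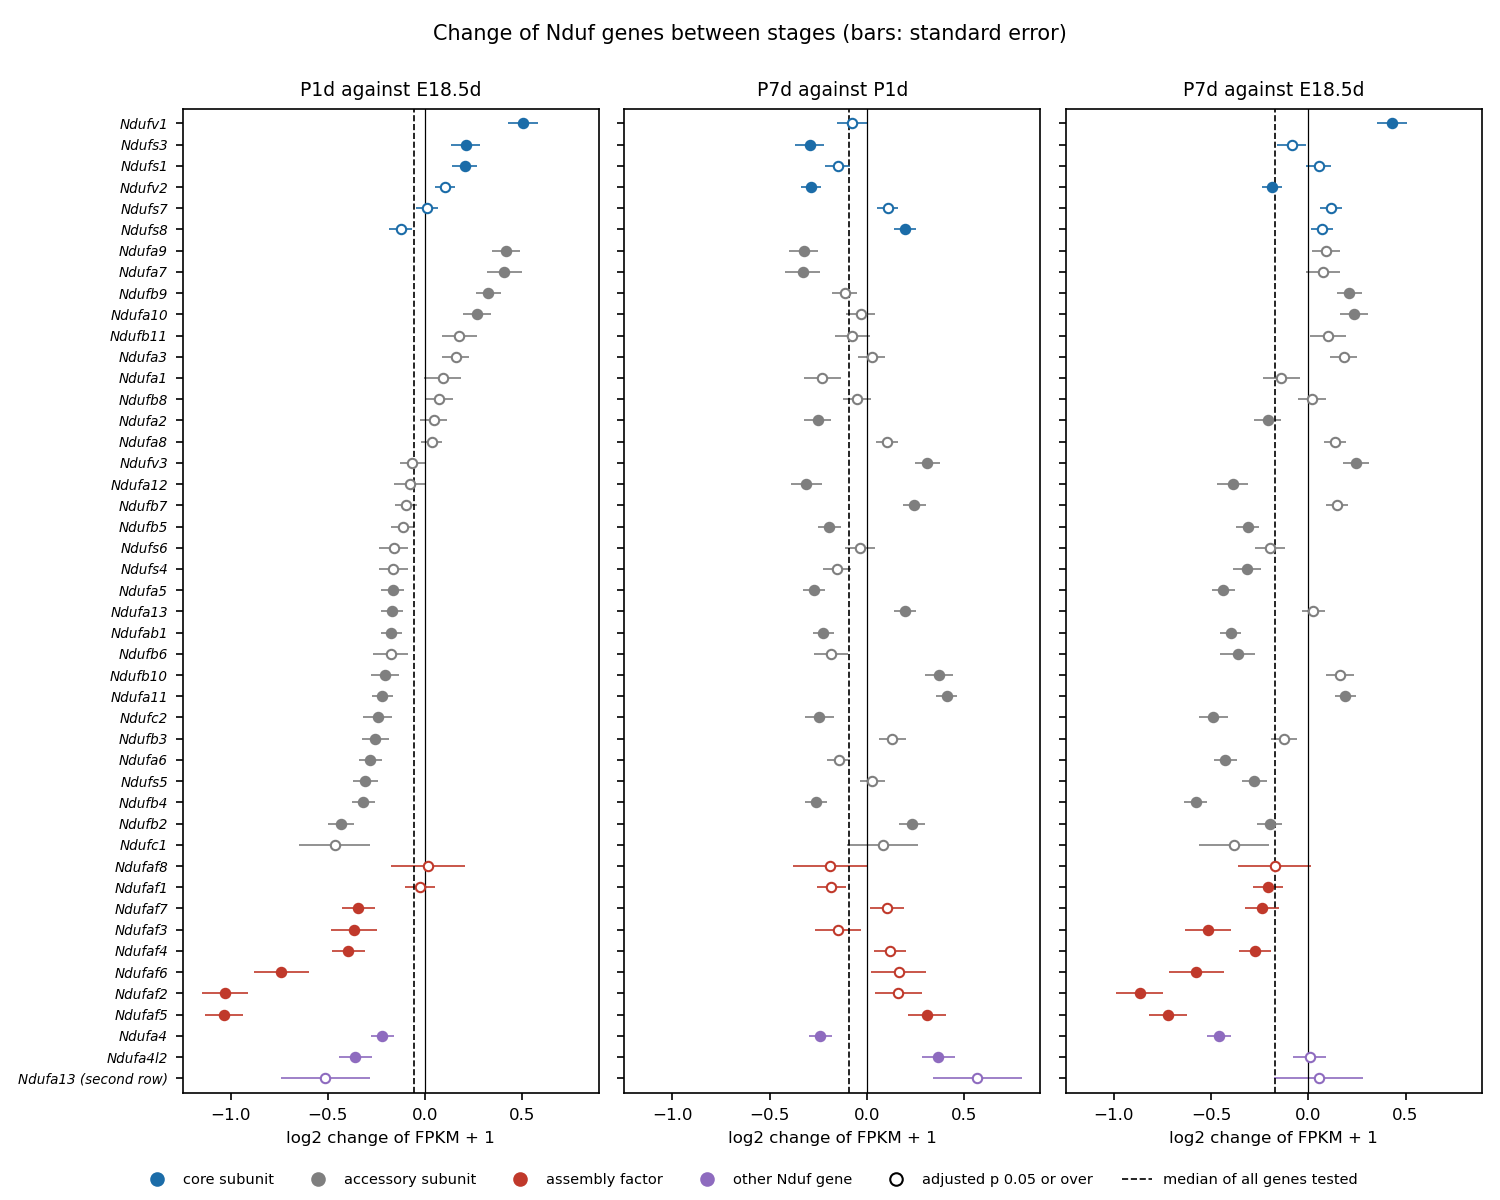
Log2 change of FPKM + 1 for 46 *Nduf* genes in the 3 comparisons, with bars for the standard error, filled points for an adjusted p under 0.05 and the median of all genes tested as a dashed line. At P1d 6 of the 8 assembly factors (red) lie to the left and 5 of the 6 core subunits drawn (blue) to the right of the dashed line.

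Among the core subunits, *Ndufv1* (chr19:4007384-4012806, minus strand, GRCm38), whose protein binds FMN and NADH at the tip of the matrix arm, was at 216, 214 and 195 FPKM at E18.5d, 285, 323 and 281 FPKM at P1d and 295, 289 and 259.93 FPKM at P7d. Every heart after birth was above every E18.5d heart. The log2 change was 0.50 ± 0.077 (SE, adjusted p = 0.000658) at P1d and 0.43 ± 0.077 (SE, adjusted p = 0.00149) at P7d, and both calls held in 21 of 22 other settings (13 other ways of processing and 9 fits that each left out 1 heart), the exception being the 5 hearts without *Xist*. Its neighbour in the NADH-oxidising module, *Ndufv2*, which carries an iron-sulphur cluster, was at 294, 279.78 and 286 FPKM at E18.5d, 295, 314 and 314 FPKM at P1d and 254, 255 and 247 FPKM at P7d. P7d hearts were the lowest, with a log2 change of -0.29 ± 0.051 (SE, adjusted p = 0.0018) from P1d and -0.18 ± 0.051 (SE, adjusted p = 0.0142) from E18.5d. Rescaled by the median of ratios, the change from P1d was -0.18 and that from E18.5d -0.01, and the sign of the latter turned to 0.09 when GC was corrected as well.

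*Ndufs1*, an iron-sulphur subunit of the NADH-oxidising module, was at 238, 217 and 219.76 FPKM at E18.5d, 252, 252 and 273 FPKM at P1d and 248, 225 and 228 FPKM at P7d. All P1d hearts were above all E18.5d hearts, by 0.20 ± 0.064 (SE, adjusted p = 0.0275) on the log2 scale, but the call was lost without E18.5d replicate 2, E18.5d replicate 3 or P1d replicate 3 (adjusted p up to 0.0971). The scaffold subunit *Ndufs3* was at 186, 171 and 165 FPKM at E18.5d, 188, 207 and 209 FPKM at P1d and 171, 170.46 and 151 FPKM at P7d. It peaked at P1d as deposited, rising by 0.21 ± 0.075 (SE, adjusted p = 0.0456) and then changing by -0.29 ± 0.075 (SE, adjusted p = 0.0112). The rise was lost on leaving out any one of 6 of the 9 hearts (all but E18.5d replicate 1, P1d replicate 1 and P7d replicate 3; adjusted p up to 0.139). With an equal sum of each column it was 0.04. The later change was not called by the median of ratios (-0.19), with the equal sum (-0.16) or with the covariate for *Xist* (-0.28).

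The last core subunits, *Ndufs7* and *Ndufs8*, hand electrons to ubiquinone through their iron-sulphur clusters. *Ndufs7* was at 142, 156 and 143 FPKM at E18.5d, 143, 151 and 149 FPKM at P1d and 155, 162 and 159.96 FPKM at P7d. Its log2 change did not pass the threshold in any comparison (0.01 at P1d, 0.11 from P1d to P7d and 0.12 over both). The change over both was 0.29 and called by the median of ratios, and -0.09 and not called with the GC correction. *Ndufs8* was at 114, 113 and 104 FPKM at E18.5d, 103, 100.09 and 99.6 FPKM at P1d and 109.97, 122 and 116 FPKM at P7d. It had its lowest values at P1d, -0.13 ± 0.058 on the log2 scale against E18.5d (adjusted p = 0.1), and rose by 0.20 ± 0.058 (SE, adjusted p = 0.0214) to P7d, a call lost without P7d replicate 2 or P7d replicate 3 (adjusted p up to 0.0771).

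**Figure D3:**
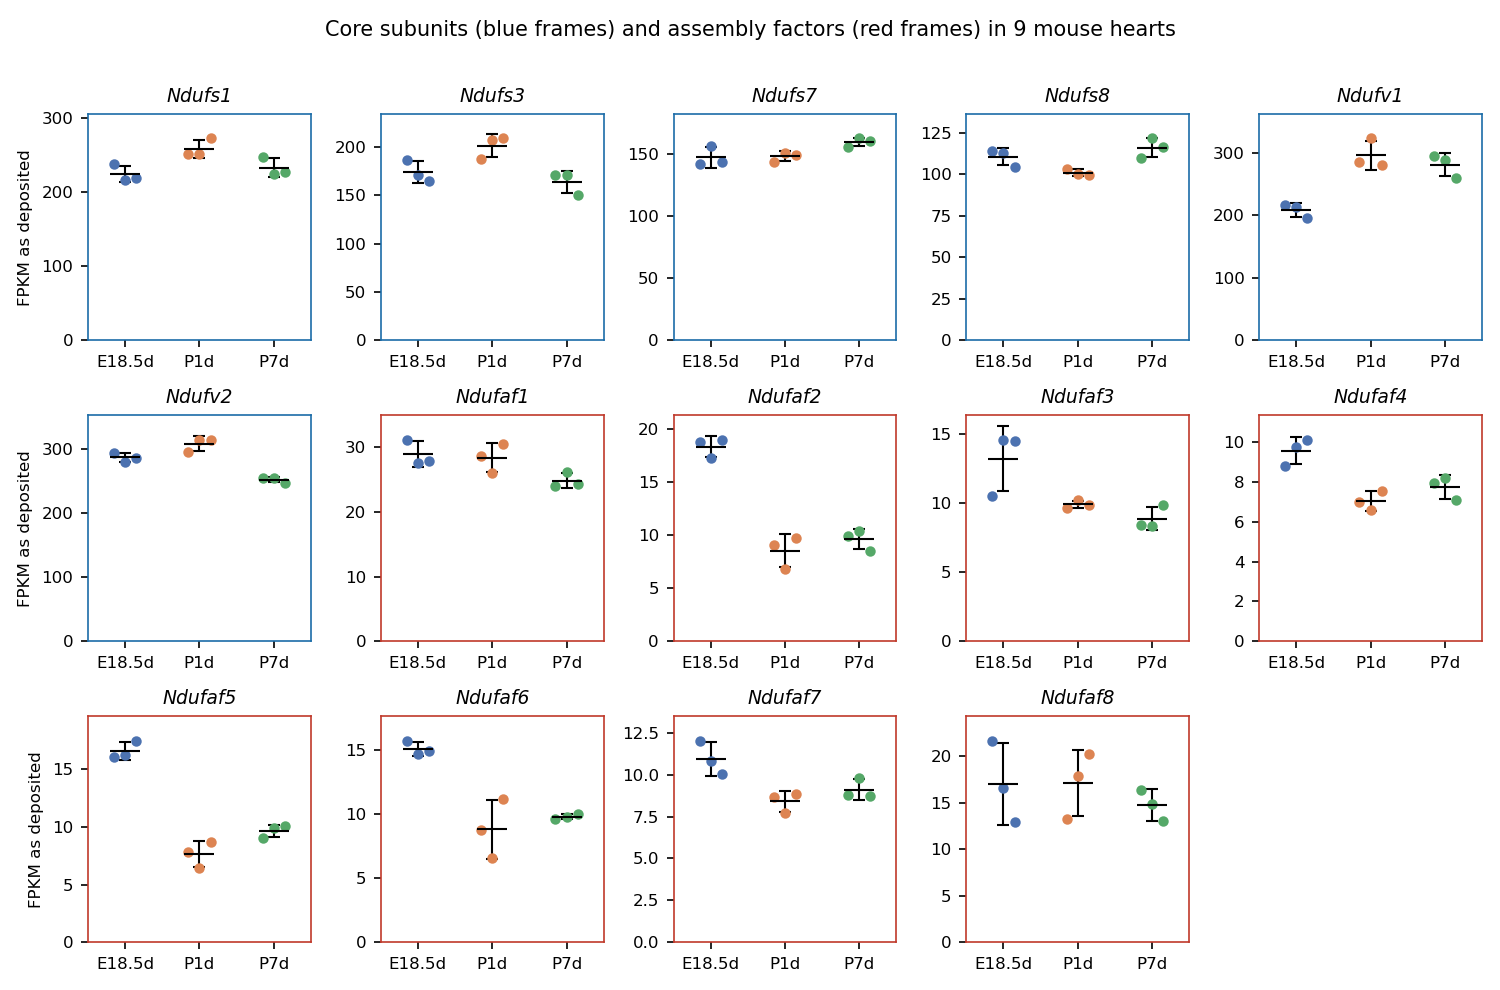
FPKM as deposited in single hearts (points) for 6 core subunits (blue frames) and 8 assembly factors (red frames), with the mean and SD of 3 hearts per stage in black; each axis starts at 0. *Ndufv1* is higher in all 6 hearts after birth, whereas *Ndufaf2*, *Ndufaf5* and *Ndufaf6* are lower in all 6.

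The assembly factors held the largest changes among the 47 genes tested. *Ndufaf5* (chr2:140170649-140203689, plus strand), which hydroxylates an arginine of the core subunit *Ndufs7*, was at 16.04, 16.3 and 17.5 FPKM at E18.5d, 7.84, 6.41 and 8.67 FPKM at P1d and 9.04, 9.88 and 10.1 FPKM at P7d. It fell by 1.03 ± 0.098 (SE, adjusted p = 4.51e-05) at P1d, to 0.46 times the E18.5d mean, and then rose by 0.31 ± 0.098 (SE, adjusted p = 0.0279) to P7d, where it was still -0.72 ± 0.098 from E18.5d. The fall held in 21 of 22 other settings. The later rise was lost without P1d replicate 2, P7d replicate 2 or P7d replicate 3 (adjusted p up to 0.0863) and with the covariate for *Xist*.

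*Ndufaf2* (chr13:108002715-108158623, minus strand), a paralogue of the accessory subunit *Ndufa12* that joins a late assembly intermediate, was at 18.7, 17.2 and 18.97 FPKM at E18.5d, 9.04, 6.8 and 9.75 FPKM at P1d and 9.92, 10.3 and 8.53 FPKM at P7d. Every heart after birth was below every E18.5d heart, with a log2 change of -1.03 ± 0.12 (SE, adjusted p = 0.000145) at P1d and -0.87 ± 0.12 (SE, adjusted p = 0.000354) at P7d. From P1d to P7d the change was 0.16 ± 0.12 (adjusted p = 0.297). The longest transcript of *Ndufaf2* shares stretches of at least 200 bases and 95% identity with *Patj*, *Lrrc8d* and *Slc38a6*, so part of its reads may be counted for another gene. At E18.5d, P1d and P7d in turn, *Patj* averaged 5.96, 11.4 and 8.94 FPKM, the opposite direction to *Ndufaf2* at P1d, *Lrrc8d* 4.36, 5.02 and 6.14 FPKM, and *Slc38a6* 5.43, 4.94 and 4.20 FPKM. The part of shared reads in the fall was not tested. *Ndufaf6*, needed at an early step of assembly, was at 15.7, 14.7 and 14.9 FPKM at E18.5d, 8.77, 6.54 and 11.1 FPKM at P1d and 9.59, 9.78 and 10.03 FPKM at P7d. It fell by 0.74 ± 0.14 (SE, adjusted p = 0.00231) at P1d and was -0.58 ± 0.14 from E18.5d at P7d, and its P1d hearts had the widest relative SD among the subunits and assembly factors, 26%. These 3 falls were also called on values rescaled by the median of ratios, at -0.97, -0.97 and -0.68 at P1d.

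*Ndufaf3* and *Ndufaf4* act together to build the ubiquinone-binding module. *Ndufaf3* was at 10.5, 14.6 and 14.5 FPKM at E18.5d, 9.65, 10.2 and 9.86 FPKM at P1d and 8.39, 8.36 and 9.84 FPKM at P7d. E18.5d replicate 1 lay near the P1d hearts, and the change of -0.37 ± 0.12 at P1d (adjusted p = 0.03) was lost without E18.5d replicate 2 or 3 or without any one P1d heart (adjusted p up to 0.108), whereas that at P7d, -0.51 ± 0.12 (SE, adjusted p = 0.00587), held without each heart in turn. *Ndufaf4* was at 8.82, 9.76 and 10.1 FPKM at E18.5d, 6.99, 6.57 and 7.56 FPKM at P1d and 7.93, 8.22 and 7.1 FPKM at P7d. It fell by 0.39 ± 0.083 (SE, adjusted p = 0.00379) at P1d. At P7d its difference from E18.5d was -0.27 ± 0.083 as deposited (adjusted p = 0.021), -0.12 by the median of ratios (not called) and about 0 with the GC correction added.

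*Ndufaf7*, a methyltransferase, was at 12.02, 10.8 and 10.01 FPKM at E18.5d, 8.64, 7.69 and 8.86 FPKM at P1d and 8.8, 9.81 and 8.7 FPKM at P7d. It fell by 0.34 ± 0.086 (SE, adjusted p = 0.00951) at P1d. The difference at P7d, -0.24 ± 0.086 (adjusted p = 0.043), was called in 7 of 22 other settings and was -0.08 by the median of ratios. *Ndufaf1*, part of the complex that builds the membrane arm, was at 31.1, 27.5 and 27.9 FPKM at E18.5d, 28.7, 25.9 and 30.4 FPKM at P1d and 24.02, 26.1 and 24.3 FPKM at P7d. Its P1d hearts overlapped those of E18.5d (-0.03, adjusted p = 0.799), and its P7d value of -0.21 ± 0.076 (adjusted p = 0.0456) was called in 5 of 22 other settings and had the other sign, at 0.01, with the GC correction and the median of ratios together. *Ndufaf8*, the partner of *Ndufaf5*, was at 21.6, 16.6 and 12.9 FPKM at E18.5d, 13.3, 17.8 and 20.2 FPKM at P1d and 16.4, 14.8 and 13 FPKM at P7d. Its relative SD within E18.5d, 25.9%, was the second widest among the subunits and assembly factors, the stages overlapped, and no comparison passed the threshold. In all, 7 of 8 assembly factors had fallen by P7d as deposited (36.9% of all genes) and 4 of 8 by the median of ratios (21.7%), with a median log2 change of -0.39 and -0.24. The 7 became 5 with the covariate for *Xist* and 4 to 7 with 1 heart left out at a time, 4 being the count without E18.5d replicate 2 or P7d replicate 3.

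Bases upstream of the RefSeq start site are shown for the genes with the largest rise and the largest falls at P1d and for the one assembly factor that holds GCATGCGC before its start. They come from RefSeq on GRCm38.p6, read 5′ to 3′ on the strand of the gene, and capitals mark GCATGCGC, 8 letters within the element of NRF1, a regulator of genes for mitochondrial proteins, on either strand. The lines of *Ndufaf2* and *Ndufaf4* end at the base before that start, that of *Ndufv1* ends before the first base of the gene in GENCODE M21, and that of *Ndufaf5* lies just after its start.

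*Ndufv1* (chr19:4012807-4013005, minus strand): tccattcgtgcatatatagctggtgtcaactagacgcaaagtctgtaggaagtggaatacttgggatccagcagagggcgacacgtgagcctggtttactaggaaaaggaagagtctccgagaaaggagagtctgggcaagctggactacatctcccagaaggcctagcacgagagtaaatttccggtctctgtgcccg
*Ndufaf2* (chr13:108158626-108158875, minus strand): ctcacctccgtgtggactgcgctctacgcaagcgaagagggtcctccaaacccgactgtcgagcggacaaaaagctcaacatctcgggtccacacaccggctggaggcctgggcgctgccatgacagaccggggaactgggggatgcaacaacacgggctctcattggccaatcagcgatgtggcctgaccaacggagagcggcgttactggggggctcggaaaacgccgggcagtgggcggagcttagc
*Ndufaf4* (chr4:24897833-24898082, plus strand): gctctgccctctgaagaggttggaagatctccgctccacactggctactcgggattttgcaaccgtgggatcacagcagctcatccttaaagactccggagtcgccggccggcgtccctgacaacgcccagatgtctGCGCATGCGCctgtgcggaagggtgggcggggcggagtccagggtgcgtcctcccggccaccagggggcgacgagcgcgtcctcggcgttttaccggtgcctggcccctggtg
*Ndufaf5* (chr2:140170652-140170681, plus strand): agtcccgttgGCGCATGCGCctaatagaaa

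*Ndufaf4* and *Ndufaf5* each hold the run GCGCATGCGC, in which the letters overlap on both strands, at 113 to 104 bases before the start in *Ndufaf4* and at 17 to 26 bases after it in *Ndufaf5*. Windows from 250 bases before to 50 after the start were found for 40 of the 48 genes, and 5 of the 40 (12.5%) held GCATGCGC, beside 2.71% of 32851 windows of all genes. A *Nduf* gene counted if any of its windows held the letters, whereas the share of all genes is per window. CCGGAAG, an ETS element bound by GABPA, was in 6 of 40 (15%) beside 8.86%, and AAGGTCA, the short element of the ERR receptors, in 3 of 40 (7.5%) beside 4.72%. The extended ERR element TCAAGGTCA was in 0 of 40 genes, beside 0.42% of windows. By class, GCATGCGC was in 2 of 7 assembly factors, 3 of 27 accessory subunits and 0 of 5 core subunits. *Ndufv1* and *Ndufaf2*, which moved in opposite directions, held none of these letters. A match describes the letters and is not a binding site.

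Among the accessory subunits of the matrix arm, *Ndufa9* and *Ndufa7* peaked at P1d. *Ndufa9*, which sits beside the ubiquinone pocket, was at 179, 181 and 164 FPKM at E18.5d, 222, 254 and 224 FPKM at P1d and 193, 190.12 and 175 FPKM at P7d. All P1d hearts were above all others, with a rise of 0.41 ± 0.073 (SE, adjusted p = 0.00148) and a change to P7d of -0.32 ± 0.073 (adjusted p = 0.00597). That change was -0.22 and still called by the median of ratios. It was not called with the covariate for *Xist* (-0.27) or with an equal sum of each column (-0.19). *Ndufa7* was at 349, 314 and 300.30 FPKM at E18.5d, 403, 473 and 403 FPKM at P1d and 344, 361 and 310.14 FPKM at P7d. It rose by 0.41 ± 0.089 (SE, adjusted p = 0.00495) at P1d, and its change to P7d, -0.33 ± 0.089 (adjusted p = 0.0145), was lost without P7d replicate 3 (adjusted p = 0.0562) and by the median of ratios (-0.22). In both genes the E18.5d and P7d hearts overlapped.

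*Ndufv3*, an accessory subunit of the NADH-oxidising module, was at 400.99, 409 and 387 FPKM at E18.5d, 354, 403 and 388 FPKM at P1d and 490.36, 479 and 450.17 FPKM at P7d. Its E18.5d and P1d hearts overlapped, it rose by 0.31 ± 0.065 (SE, adjusted p = 0.00412) from P1d to P7d, and P7d was 0.25 ± 0.065 (SE, adjusted p = 0.0115) above E18.5d. *Ndufa12*, the subunit that takes the place of *Ndufaf2* in the finished enzyme, was at 525, 516 and 495 FPKM at E18.5d, 447, 535 and 476 FPKM at P1d and 376, 424 and 373 FPKM at P7d. Its E18.5d and P1d hearts overlapped, and it fell by 0.31 ± 0.079 (SE, adjusted p = 0.0112) from P1d to P7d, -0.21 by the median of ratios and then not called. *Ndufa5*, a subunit of the ubiquinone-binding module, was at 394, 435 and 443 FPKM at E18.5d, 367, 385 and 379.70 FPKM at P1d and 318, 308 and 312 FPKM at P7d. The stages were in steps without overlap, with -0.17 ± 0.058 at P1d (adjusted p = 0.0406, called in 6 of 22 other settings) and -0.44 ± 0.058 (SE, adjusted p = 0.000288) by P7d.

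*Ndufab1*, the mitochondrial acyl carrier protein, sits in both arms and also serves fatty acid synthesis and iron-sulphur cluster assembly. It was at 213, 194 and 209.69 FPKM at E18.5d, 184, 176 and 185 FPKM at P1d and 157, 155 and 154 FPKM at P7d. Values stepped down from stage to stage without overlap, a log2 change of -0.40 ± 0.054 (SE, adjusted p = 0.000311) in all. The change over both steps was -0.23 and called by the median of ratios, whereas neither single step was.

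In the membrane arm, 2 of 19 subunits rose and 8 fell at P1d, against 6 and 2 of 16 in the matrix arm, beside 18.4% and 27.6% of all genes. By the median of ratios they were 3 and 3 against 7 and 1, beside 22.9% and 23.1%. The covariate for *Xist* gave 1 and 4 against 3 and 1, beside 11.8% and 21.2% of all genes. An equal sum of each column gave 0 and 12 against 3 and 7, beside 1175 and 4694 of all 13618 genes. Leaving out E18.5d replicate 2 gave 2 and 5 against 4 and 1, beside 2092 and 3065 of all genes. The difference between the arms was not tested. *Ndufb9*, a LYR motif protein, was at 556, 559 and 533 FPKM at E18.5d, 648, 719 and 697 FPKM at P1d and 664, 648 and 596 FPKM at P7d. It rose by 0.32 ± 0.064 (SE, adjusted p = 0.00298) at P1d, and all 6 hearts after birth were above the E18.5d hearts, by 0.21 ± 0.064 at P7d (adjusted p = 0.0226). *Ndufa10*, related in sequence to nucleoside kinases, was at 202, 197 and 193 FPKM at E18.5d, 229, 261 and 224 FPKM at P1d and 238, 246 and 214 FPKM at P7d. The rise of 0.27 ± 0.074 (SE, adjusted p = 0.0156) at P1d held at 0.24 ± 0.074 at P7d (adjusted p = 0.0248). The P7d calls of *Ndufb9* and *Ndufa10* were each lost without E18.5d replicate 2, E18.5d replicate 3, P7d replicate 1 or P7d replicate 2 (adjusted p up to 0.0832 and 0.0899).

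Other membrane arm genes dipped at P1d. *Ndufa11*, which lies where complex I meets complex III in supercomplexes, was at 36.9, 36.3 and 37.9 FPKM at E18.5d, 30.5, 32.3 and 32.1 FPKM at P1d and 41, 44.5 and 41.7 FPKM at P7d. Its P1d hearts were the lowest, -0.22 ± 0.055 from E18.5d (adjusted p = 0.00931), and it then rose by 0.41 ± 0.055 (SE, adjusted p = 0.000389). The dip was not called by the median of ratios (-0.16) or with the covariate for *Xist* (-0.18), and the rise was called in 21 of 22 other settings. *Ndufb10*, a subunit on the intermembrane side, was at 418, 405 and 384 FPKM at E18.5d, 333, 329 and 387 FPKM at P1d and 449.67, 463 and 439 FPKM at P7d. One P1d heart overlapped the E18.5d hearts and the dip was -0.21 ± 0.072 (adjusted p = 0.0412, called in 6 of 22 other settings), while the rise to P7d was 0.37 ± 0.072 (SE, adjusted p = 0.00288) and was called in 21 of 22. *Ndufb2*, at the far end of the arm, was at 145, 141 and 138 FPKM at E18.5d, 101, 112 and 100.40 FPKM at P1d and 126, 129 and 114 FPKM at P7d. It fell by 0.43 ± 0.066 (SE, adjusted p = 0.000665) at P1d and came back in part, by 0.23 ± 0.066 (adjusted p = 0.0177), to a P7d level -0.20 ± 0.066 from E18.5d (adjusted p = 0.0309), which was -0.03 by the median of ratios and 0.06 with the GC correction added. *Ndufs5*, on the intermembrane side, was at 239, 236 and 226 FPKM at E18.5d, 173, 196 and 198 FPKM at P1d and 198, 197 and 183 FPKM at P7d. It fell by 0.31 ± 0.066 (SE, adjusted p = 0.0043) at P1d and changed by 0.03 from there to P7d (adjusted p = 0.745).

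*Ndufb4* and *Ndufc2* were lower at each later stage as deposited. *Ndufc2*, a membrane-spanning subunit, was at 288, 278 and 279 FPKM at E18.5d, 236, 227 and 249.69 FPKM at P1d and 182, 221 and 200.02 FPKM at P7d. This was a log2 difference of -0.49 ± 0.074 (SE, adjusted p = 0.00058) by P7d. Its single steps were -0.18 and -0.14 and not called by the median of ratios, and each was lost without any one of 4 hearts: E18.5d replicates 1 and 2 and P1d replicates 1 and 2 for the first, and P1d replicates 1 and 3 and P7d replicates 1 and 3 for the second. *Ndufb4* was at 133, 132 and 126 FPKM at E18.5d, 97.95, 107 and 109 FPKM at P1d and 85.8, 90.2 and 84.9 FPKM at P7d, with -0.58 ± 0.058 (SE, adjusted p = 5.15e-05) by P7d, the largest fall among the accessory subunits called. Its step from P1d to P7d was -0.16 and not called by the median of ratios. Its value is uncertain, because the pseudogene *Ndufb4c* matches it over at least 200 bases at 100% identity and averaged 222, 221 and 192 FPKM at the 3 stages, above the 130, 105 and 87 FPKM of *Ndufb4* itself. Reads could be divided between them, and both columns of means were lowest at P7d. *Ndufc1*, singled out after its values were seen, had the widest relative SD among the subunits, 24.9% at E18.5d. Of 8 *Nduf* genes with such copies elsewhere, only *Ndufb4* and *Ndufaf2* had a copy at 10% or more of their own level. *Ndufa13*, *Ndufb5* and *Ndufb6* overlap *Tssk6*, *Mrpl47* and *Smim27* in part, and the library kit as named does not mark the strand.

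The other 15 accessory subunits were left after *Ndufab1* and the largest called changes were named, which lowers the counts among them. They had log2 changes of -0.46 to 0.17 at P1d, with 0 higher and 3 lower, beside 18.4% and 27.6% of all genes. From P1d to P7d they ran from -0.25 to 0.24, with 2 higher and 2 lower, beside 15.5% and 28.6%. From E18.5d to P7d they ran from -0.43 to 0.18, with 0 higher and 5 lower, beside 12.5% and 36.9%. The value at -0.46 was that of *Ndufc1*, which did not pass the threshold.

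Across the 47 genes, 10 passed no threshold, 5 fell at both intervals and over the whole, 7 fell at P1d and stayed below E18.5d at P7d without a call between, 3 rose at P1d and fell back, and 3 fell at P1d and rose back. The genes that fell at every step were *Ndufa4*, *Ndufa5*, *Ndufab1*, *Ndufb4* and *Ndufc2*. Those that rose and fell back were *Ndufa7*, *Ndufa9* and *Ndufs3*, all of the matrix arm, and those that fell and came back were *Ndufa13*, *Ndufb10* and *Ndufa4l2*. *Ndufa13* was named after its values were seen. The share of all genes with each pattern was not taken. Taken singly, P1d against E18.5d called 18.4% of all genes higher and 27.6% lower. P7d against P1d called 15.5% and 28.6%, and P7d against E18.5d 12.5% and 36.9%. The sorting of the *Nduf* genes rests on the values as deposited. By the median of ratios, both steps were called for 0 of the 5 genes, for 1 of the 3 that rose and fell back (*Ndufa9*) and for 1 of the 3 that fell and came back (*Ndufa4l2*).

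*Ndufa4*, the complex IV subunit, was at 832, 789 and 799 FPKM at E18.5d, 662, 737 and 679 FPKM at P1d and 604, 591 and 566 FPKM at P7d. It had the highest mean of the list at E18.5d and P1d, and at P7d its mean was below those of *Ndufb9*, *Ndufb8* and *Ndufa3*. The stages did not overlap, and the log2 change by P7d was -0.46 ± 0.061 (SE, adjusted p = 0.00028), or -0.29 by the median of ratios. Its paralogue *Ndufa4l2*, a target of hypoxia-inducible factor in other cells, was at 26.04, 25.03 and 22.3 FPKM at E18.5d, 17.2, 20.3 and 19.03 FPKM at P1d and 26.5, 24.3 and 23.03 FPKM at P7d. It fell by 0.36 ± 0.085 (SE, adjusted p = 0.00698) at P1d and came back by 0.37 ± 0.085 (SE, adjusted p = 0.00683), with E18.5d and P7d hearts overlapping. The row with the symbol *Ndufa13* and the identifier of *Yjefn3* was at 0.99 to 2.83 FPKM, against 119.8 to 149 FPKM for the row with the identifier of *Ndufa13*, and passed no threshold.

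Differences taken within each heart move little with the scale of its column. Each gene was centred on its mean over 9 hearts, and the core subunits minus the accessory subunits came to -0.12, -0.13 and -0.19 log2 units in the E18.5d hearts, 0.12, 0.10 and 0.09 in the P1d hearts and 0.05, 0.03 and 0.06 in the P7d hearts. The 3 stages did not overlap, and their means in order of age were -0.15 ± 0.04, 0.10 ± 0.02 and 0.05 ± 0.02 (SD, n = 3). The assembly factors minus all subunits came to 0.29, 0.27 and 0.28 at E18.5d, -0.14, -0.37 and -0.05 at P1d and -0.12, -0.09 and -0.06 at P7d. Every heart after birth was thus below the E18.5d hearts, and P1d replicate 2, which stood apart in composition, was the lowest. The matrix arm minus the membrane arm averaged -0.06 ± 0.03 before birth, 0.11 ± 0.04 on the first day and -0.05 ± 0.02 a week later (SD, n = 3), positive in the 3 P1d hearts only. No test is attached to these sums, since the genes were chosen as a group.

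**Figure D4:**
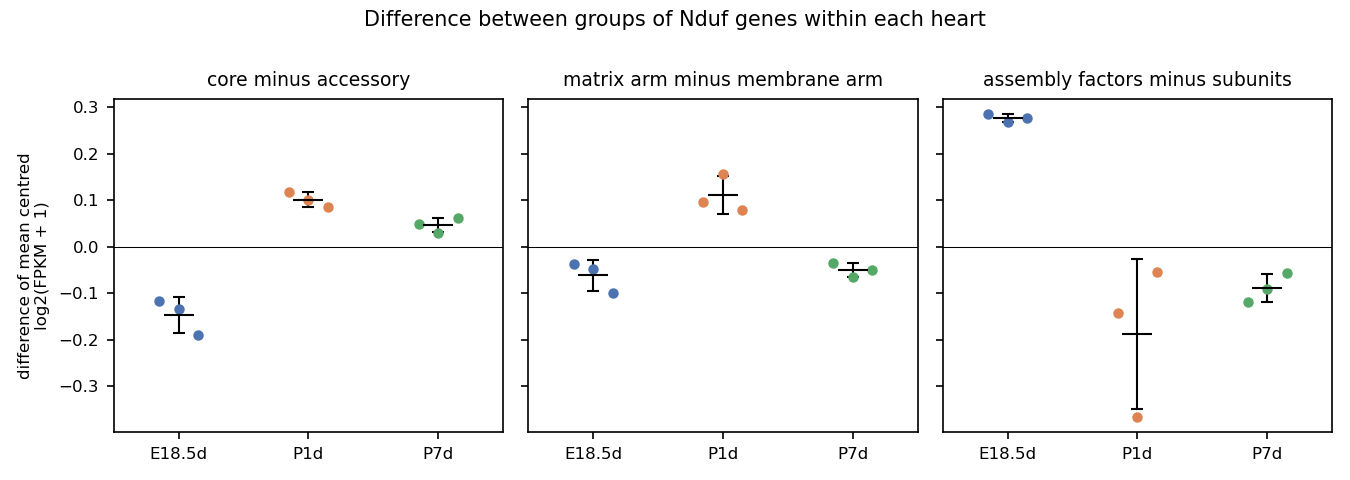
Difference of mean centred log2(FPKM + 1) between groups of *Nduf* genes within each heart (points), with the mean and SD of 3 hearts per stage in black. Core minus accessory subunits rises from -0.15 to 0.10 at P1d, and assembly factors minus subunits drops from 0.28 to -0.19.

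The changes moved with the base composition of the transcripts. From E18.5d to P7d, Spearman's rho between the log2 change and the GC content of the transcript was 0.47 over 47 *Nduf* genes and 0.52 over the 36 subunits, beside 0.25 over 13517 genes with a known GC. At P1d against E18.5d it was 0.19 over the *Nduf* genes and 0.14 over all genes, and from P1d to P7d 0.25 and 0.10. These are descriptions across genes that share the same 9 libraries. The median GC was 54.2% for the core subunits, 50.3% for the accessory subunits and 47.55% for the assembly factors. With a GC correction per heart, chosen after this was seen, the median log2 change at P1d stayed at 0.19 for the core subunits and -0.38 for the assembly factors, whereas that of the core subunits at P7d went from 0.07 to -0.04. The P7d rise of *Ndufv1* became 0.28 and was still called, and that of *Ndufa11* became 0.01.

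**Figure D5:**
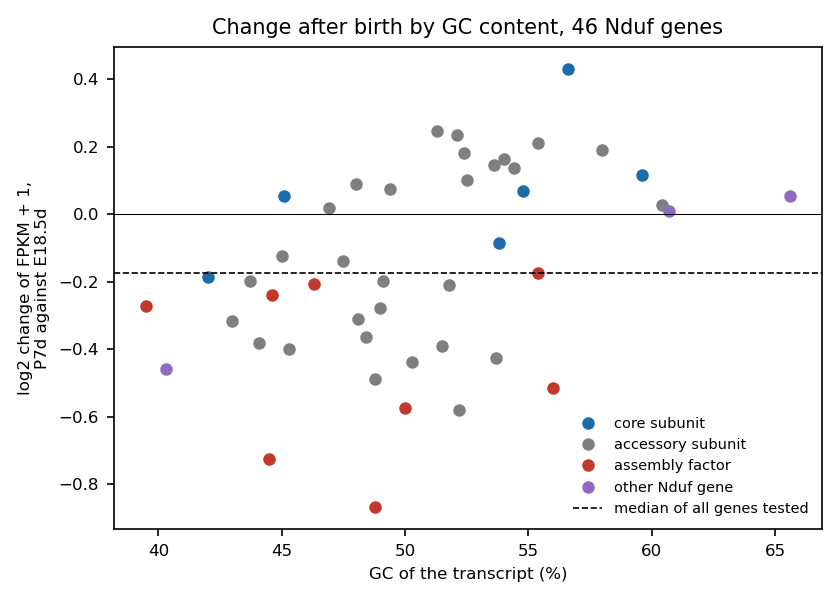
Log2 change of FPKM + 1 from E18.5d to P7d against the GC content of the transcript in percent for 46 *Nduf* genes, coloured by class, with the median of all genes tested as a dashed line. GC-rich transcripts lie higher (Spearman's rho of 0.47 over the 47 genes tested), and the assembly factors lie at or below the dashed line.

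The other genes of the pathway were taken from lists. The 12 further complex I assembly factors found in the table included 1 that rose and 7 that fell at P1d, beside 18.4% and 27.6% of all genes, with a median log2 change of -0.29, or 3 and 5 and -0.23 by the median of ratios. *Tmem126b*, part of the complex that builds the membrane arm, was at 9.47, 9.67 and 10.5 FPKM at E18.5d, 5.06, 5.08 and 4.98 FPKM at P1d and 7.04, 6.43 and 6.82 FPKM at P7d. All 3 P1d hearts were below all E18.5d hearts, with -0.85 ± 0.07 (SE, adjusted p = 1.64e-05). *Timmdc1*, which acts beside it, was at 29.1, 28.1 and 27.3 FPKM at E18.5d, 18.6, 19.4 and 18.9 FPKM at P1d and 19.5, 19.3 and 19.8 FPKM at P7d, with -0.55 ± 0.05 (SE, adjusted p = 4.75e-05) on the log2 scale at P1d and -0.51 at P7d. *Dmac2* was the one that rose, by 0.36 ± 0.1 (SE, adjusted p = 0.0127). From E18.5d to P7d, 6 of the 12 fell as deposited, beside 36.9% of all genes, and 1 rose and 4 fell by the median of ratios, beside 20.8% and 21.7%.

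The 7 core subunits encoded in mitochondrial DNA make up the pumping part of the membrane arm. At P1d 3 rose and 1 fell, beside 18.4% and 27.6% of all genes, with a median log2 change of 0.45. From E18.5d to P7d 4 rose and the other 3 passed no threshold, beside 12.5% of all genes higher, with a median of 0.82 (0.99 by the median of ratios). *mt-Nd4* was at 384, 447 and 487 FPKM at E18.5d, 589.87, 517 and 699 FPKM at P1d and 1039, 1169 and 1044 FPKM at P7d. Its stages did not overlap, and it rose by 1.31 ± 0.12 (SE, adjusted p = 3.39e-05) over both intervals. *mt-Nd5* rose by 0.99 ± 0.12 (SE, adjusted p = 0.000145), from 481 to 628 FPKM before birth to 1014 to 1187 FPKM at P7d. *mt-Nd6*, the only one encoded on the other strand, fell by 0.74 ± 0.17 (SE, adjusted p = 0.00565) at P1d and rose by 1.01 ± 0.17 (SE, adjusted p = 0.00126) afterwards. Genes in mitochondrial DNA overlap or abut, so without strand the reads of *mt-Nd6* and of its neighbours, or of *mt-Nd4l* and *mt-Nd4*, cannot be fully told apart. *mt-Nd4l* spread from 31.1 to 221 FPKM within E18.5d.

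Other complexes of the chain gave smaller medians at P1d, from 0.04 in the 16 genes of complex V to 0.16 in the 4 genes of complex II, with 2 of 4 genes up in complex II, 2 of 9 in complex III, 5 of 16 in complex IV and 3 of 16 in complex V. In complexes IV and V 4 and 3 genes fell, and at P1d 18.4% of all genes were higher and 27.6% lower. From E18.5d to P7d 1 rose in complex II, 1 rose and 3 fell in complex III, 4 and 7 in complex IV and 2 and 5 in complex V, beside 12.5% and 36.9% of all genes. By the median of ratios 2 rose in complex II, 5 rose and 1 fell in complex III, 4 and 5 in complex IV and 3 and 3 in complex V, beside 20.8% and 21.7%. Among 10 genes taken as markers of mitochondrial mass, 1 rose and 3 fell at P1d, beside 18.4% and 27.6% of all genes. By P7d 1 rose and 7 fell, beside 12.5% and 36.9%, or 2 and 4 by the median of ratios, beside 20.8% and 21.7%. Differences between these lists and the *Nduf* genes were not tested.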

How the data were processed

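RNA was measured in 9 hearts of C57BL/6J mice, 3 at each of E18.5d, P1d and P7d, grouped by the titles of the samples. Libraries were made from total RNA with a NEBNext Ultra kit. The authors deposited FPKM with 2 decimals for 48820 genes. The submitters' processing notes name STAR and the builds GRCm38 and mm10, and the counting tool and annotation are not given in the sources used here. Since FPKM are not counts, no count model was used, and the depth of 25500000 to 45250000 fragments was inferred from the steps between low values (88.5 to 91.4% of them whole).

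The 13618 genes whose average reached 1 FPKM were taken as log2(FPKM + 1) and fitted in one model over the 3 stages with limma 3.58.1 in R 4.3.3, with a trend in the variance. P-values were adjusted over all 13618 genes by Benjamini-Hochberg, with a threshold of 0.05, and fold changes on this scale understate those of low genes. Scripts ran in Python 3.11.15 with numpy 2.4.6, pandas 2.3.3 and matplotlib 3.10.9. The fit was tested on simulated data. The replicates are labelled biological, and if hearts came from 1 litter the p-values measure the spread within it.

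The genes, classes and lists were chosen with earlier results of these data known. Named with all values were 6 core subunits (the other is counted in its class and not reported here), the assembly factors, *Ndufa4*, *Ndufa4l2*, *Ndufab1* and, in each comparison, the 3 accessory subunits with the largest called changes in each direction whose hearts did not overlap. Genes named for level, spread or copies were singled out after their values were seen. Alternatives tried were a 0.1 pseudocount, no filter or an average of 5 FPKM or more, 4 other scalings, 2 stages only, a replicate block, a covariate for *Xist* above 1 FPKM, the hearts without *Xist* and leaving out each heart, and a GC correction (loess, span 0.4) was added after seeing the data. Sequences are RefSeq windows on GRCm38.p6, and gene positions, GC and copies come from GENCODE M21, in which 48144 identifiers matched.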

Additional observations from a re-analysis of the deposited data

How the results depend on the processing

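The counts of *Nduf* genes depended on scaling and on the hearts with *Xist* more than on the pseudocount or the filter. At P1d against E18.5d, 8 rose and 19 fell as deposited. The higher count was 3 with columns rescaled to an equal sum and 4 with the covariate for *Xist*. The lower count was 28 with the equal sum, 10 by the median of ratios, 10 with the covariate and 12 with GC correction and median of ratios together. Of all 13618 genes, 1175 rose and 4694 fell with the equal sum, beside 2505 and 3755 as deposited. By the median of ratios 22.9% and 23.1% of all genes were called, and with the covariate 11.8% and 21.2%. From P1d to P7d, the higher count went from 9 to 15 with quantile normalization, 5 with the covariate and 0 in the hearts without *Xist*. The lower count went from 12 to 0 with the equal sum (3 at an unadjusted p under 0.05 in limma), 3 with the sum of nuclear coding genes, 3 by the median of ratios, 6 by quantiles, 6 with the covariate, 0 in the hearts without *Xist* and 5 with GC correction and median of ratios. From E18.5d to P7d, the higher count went from 5 to 1 (equal sum), 18 (nuclear coding genes), 17 (median of ratios), 18 (quantiles), 0 (hearts without *Xist*), 3 (GC correction) and 14 (GC correction and median of ratios), and the lower count from 21 to 11, 10, 9, 0 and 10 under nuclear coding genes, median of ratios, quantiles, hearts without *Xist*, and GC correction with median of ratios. The counts of all genes moved with the setting as well. From P1d to P7d 1728 of 13618 genes fell with the equal sum, against 3901 as deposited. From E18.5d to P7d 2889 rose with quantile normalization, against 1706 as deposited. In the hearts without *Xist* fewer samples were fitted. The cause of the other shifts was not tested.

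Leaving out 1 heart at a time gave 6 to 9 *Nduf* genes higher and 14 to 18 lower at P1d against E18.5d, 6 to 10 and 8 to 14 from P1d to P7d, and 2 to 6 and 16 to 22 from E18.5d to P7d. Of all 13618 genes, these fits called 1988 to 2646 higher and 3065 to 3676 lower at P1d. From P1d to P7d they called 1647 to 2083 and 3061 to 3821, and from E18.5d to P7d 1410 to 1842 and 4058 to 5325. The higher count of *Nduf* genes from E18.5d to P7d was 3 without E18.5d replicate 3, 3 without P7d replicate 1 and 2 without P7d replicate 2. Calls kept without each heart in turn were 6 of 8 higher and 12 of 19 lower, 5 of 9 and 8 of 12, and 2 of 5 (*Ndufv1* and *Ndufv3*) and 15 of 21. Correlations of the deviations from the stage means were -0.055 to 0.112 for same-numbered hearts and -0.182 to 0.129 for other pairs. With 3 hearts per stage they cannot decide whether same-numbered hearts share a litter or a batch. With the replicate block, 7 *Nduf* genes rose and 16 fell at P1d, 9 and 12 from P1d to P7d, and 5 and 19 over both. Of all 13618 genes it called 2487 and 3686, 2040 and 3817, and 1706 and 4961 in turn.

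With GC correction and median of ratios together, 4 called changes from E18.5d to P7d had the other sign, at 0.0108 for *Ndufaf1*, 0.0002 for *Ndufaf4*, 0.0605 for *Ndufb2* and 0.0939 for *Ndufv2*. With a pseudocount of 0.1 the assembly factors minus subunits at E18.5d came to 0.301 instead of 0.277. Of the values of named genes in other settings, 288 lost a call, 46 gained one, and 57 that were not called as deposited changed sign. FPKM carry no counts, and values of the assembly factors, at 8.12 to 27.3 FPKM, rest on fewer fragments per length than those of the subunits.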
